A study of Mus musculus with 11 samples.

Results

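The albumin gene family of the mouse liver was followed through development together with Zhx2, a repressor of Afp, and Gpc3, another gene known from fetal liver and liver tumors. The members were taken by name from the gene column of the scanned array files and were Afp, Alb (listed as Alb1), Afm, Gc, Zhx2 and Gpc3. They made up 6 of 27962 gene names, 7 of 41174 probes and 16 of 43379 spots on each array. The probe of Afp was spotted 10 times, Afm had 2 probes and each other gene had 1 probe with 1 spot.

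Livers of normal, untreated mice were hybridized to 2-color Agilent arrays at 4 stages, embryonic E14.5 and E18.5 and postnatal P5 and P56, with 3 replicates labelled as biological per stage and 2 for P5. Cy5 marked the RNA of each liver and Cy3 a common reference made from adult livers of normal mice, so that a log2 ratio of 0 is the signal of the adult reference. The labels call the embryonic samples hepatoblasts and immature hepatocytes and the postnatal samples hepatocytes, but also name liver as their source, and whether an embryonic array held whole liver or isolated cells is not settled by them. The labels give embryonic days 14 and 18, which the study's results call E14.5 and E18.5, and the study's methods name C57BL/6 as the strain of the embryos. No knockout or other manipulation was part of these samples. Ratios of the arrays of a stage correlated across probes with r of 0.986 to 0.989 (E14.5), 0.965 to 0.982 (E18.5), 0.895 (P5) and 0.825 to 0.934 (P56). The P56 replicate 2 array was the dimmest, with 16790 spots well above background in Cy5 against 20131 to 25718 on the other arrays.

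Afp, Alb, Afm and Gc arose from a common ancestor by duplication and lie near each other on chromosome 5. Alb encodes serum albumin, Afp encodes alpha-fetoprotein, the main serum protein of the fetus, Afm encodes afamin, a carrier of vitamin E, and Gc encodes the vitamin D binding protein. All are made mainly by hepatocytes, and Afp is also made by the yolk sac. Silencing of Afp after birth is a textbook case of developmental gene repression: Zhx2 was found through BALB/cJ mice, in which Afp and H19 stay on in the adult liver, Zbtb20 is a repressor that binds the Afp promoter, and both Afp and Gpc3, a cell surface glypican, are used as markers of hepatocellular carcinoma.

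On mm7, the build of the array files, the Alb probe lay at chr5:90443687-90443746, the Afp probe at chr5:90479870-90479929, and the Afm probes at chr5:90519668-90519727 and chr5:90524738-90524797. The Gc probe spanned chr5:89408347-89408876, more than the 60 bases of a probe. From the Alb to the Afp probe was 36.1 kb, from the Afp probe to the nearer Afm probe 39.7 kb, and from the Gc to the Alb probe 1035 kb. The Gpc3 probe lay at chrX:47364815-47364874 and the Zhx2 probe at chr15:57903851-57903910. Probes of different members shared at most 8 bases in a row and at most 27 matching positions of 60, over 20 pairs.

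The promoters of Afp and Alb are shown because these genes lie side by side and yet took different courses. RefSeq promoters were matched for 5 of the 6 genes on GRCm38.p6, with Zhx2 the gene without an entry. The 250 bases before the annotated start are printed 5′ to 3′ on the strand of the gene, with each match to TGTTTGC, a motif of the FOXA factors, or to its reverse complement in capitals. They are chr5:90490464-90490713 for Afp and chr5:90460620-90460869 for Alb, both on the plus strand.
Afp: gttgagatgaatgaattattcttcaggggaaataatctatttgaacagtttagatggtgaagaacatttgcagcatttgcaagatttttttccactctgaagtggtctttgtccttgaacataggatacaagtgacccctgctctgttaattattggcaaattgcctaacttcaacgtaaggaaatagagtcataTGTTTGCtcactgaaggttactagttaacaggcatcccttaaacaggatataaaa
Alb: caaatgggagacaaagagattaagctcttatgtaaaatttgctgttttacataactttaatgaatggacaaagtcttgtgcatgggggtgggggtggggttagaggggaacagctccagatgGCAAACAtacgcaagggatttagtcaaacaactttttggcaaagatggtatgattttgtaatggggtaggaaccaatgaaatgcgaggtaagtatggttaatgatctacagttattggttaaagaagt
Both held TGTTTGC, found in 4.3% of 32851 RefSeq promoters of the same length searched on both strands, from 55 bases before the start in Afp and from 128 bases before it, on the opposite strand, in Alb. Each also held the C/EBP motif TTGCNNAA, found in 9.56%, and TTGGCA, an NFI motif found in 12.3%, and neither Afm nor Gc held any of these 3 motifs. By contrast, GTTAAT, an HNF1 motif, was held by Afp, Alb, Afm and Gc alike. Its share of all promoters is not given here, so how unusual that is remains open. In Alb the C/EBP and NFI matches shared 6 bases, so these matches are not independent. TATAAA, found in 12.4% of promoters, was held by Afp and Afm. The Gpc3 promoter held none of these letters, and its GC content was 71.6%, against 33.2% in Afm, 36.0% in Afp, 39.2% in Alb, 42.0% in Gc and a median of 52.4% over all promoters.

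Afp was at the ceiling of the scanner through P5 and had fallen from it at P56. The signal of a spot can reach 65535 units, and all 10 Afp spots were marked as saturated in Cy5 on each of the 8 arrays up to P5. No Afp spot was saturated on any P56 array, and all 3 P56 arrays were well above background.
At P56 the Cy5 signal of Afp, as the median of its 10 spots, was 414 units in replicate 1, 132 units in replicate 2 and 139 units in replicate 3, over a local background of 33.3, 34.5 and 32.5 units. The coefficient of variation over the 10 spots was 5.73% in replicate 1 and 12.6% in replicate 2, the largest of the 3 arrays, which is the spread within an array and not between livers. The P56 arrays did not overlap with any of the 8 earlier arrays. In bulk samples like these, fewer cells that make a transcript and less of it per cell cannot be told apart.
Because the earlier stages were saturated, the change has only a lower bound, and the ratio differences given further on are limited in the same way. On the Cy5 channel after normalization, Afp was at least 133-fold lower at P56 than at P5, at least 152-fold lower than at E18.5 and at least 179-fold lower than at E14.5. No fold is given among E14.5, E18.5 and P5, where both stages of each comparison were at the ceiling.
The mean log2 ratio of Afp was 6.60 ± 0.18 on the E14.5 arrays (SD, n = 3), 7.20 ± 0.20 on the E18.5 arrays (n = 3), 6.39 ± 0.33 on the P5 arrays (n = 2) and 0.93 ± 0.62 on the P56 arrays (n = 3). With Cy5 at the ceiling up to P5, the SDs of those stages do not measure the spread of Afp between livers. The SEs and adjusted p of Afp that follow share this limit. The log2 ratio fell by 5.45 from P5 to P56 (SE 0.28, adjusted p = 5.36e-08 by limma) and by 5.66 from E14.5 to P56 (SE 0.25, adjusted p = 2.37e-09 by limma). Without P56 replicate 1 the ratio fell by 5.80 from P5, and without P56 replicate 3 it fell by 5.18. Among the arrays of scan 4, the P56 mean differed from P5 replicate 3 by -5.69.

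**Figure D1:**
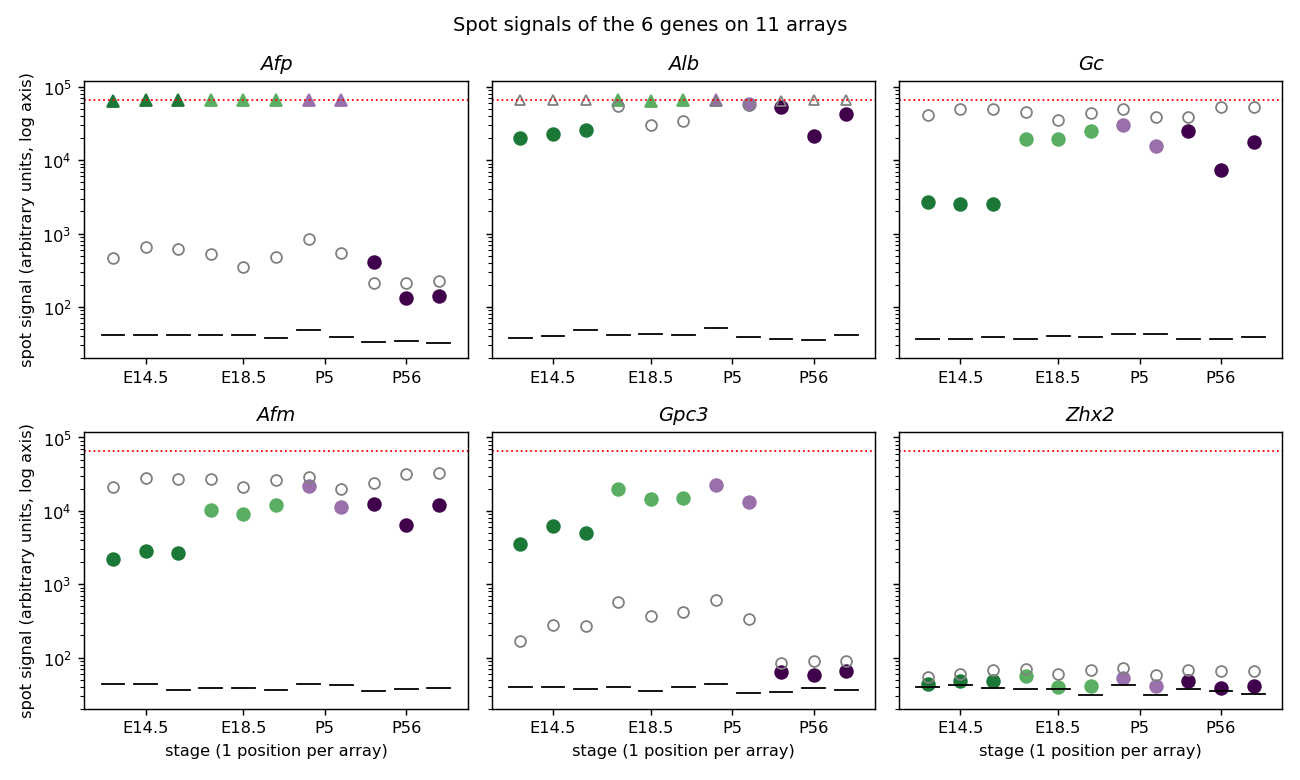
Spot signal of each gene on the 11 arrays, on a log axis in scanner units. Filled symbols are Cy5 of the liver sample, open grey symbols are Cy3 of the adult reference, triangles mark saturated signals, short black lines are the local Cy5 background and the dotted line is the ceiling of 65535. Afp leaves the ceiling only at P56, Gpc3 drops to 57.8 to 65.2 units there, and Zhx2 lies near background on every array.

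The other family genes took a different course. Of the 5 genes tested, 4 were called between E14.5 and E18.5, all higher in the later stage (Alb, Gc, Afm and Gpc3), where 24.4% of all 16702 genes tested were called higher, 22.7% lower and 47.2% in either direction. Alb, Afm and Gc were also called higher at P56 than in E14.5 liver.
The E14.5 arrays read 2651, 2540 and 2524 Cy5 units for Gc, the E18.5 arrays 19698, 19606 and 24804 units, the P5 arrays 29800 and 15852 units, and the P56 arrays 25077, 7401 and 17511 units. Every array from E18.5 on was above every E14.5 array, and the later stages overlapped with each other. Gc was never saturated in either channel. Its log2 ratio rose by 3.50 from E14.5 to E18.5 (11.3-fold, SE 0.22, adjusted p = 1.54e-07 by limma), rank 76 from the top of 16702 genes. From E18.5 to P5 the difference was -0.31 (SE 0.25, adjusted p = 0.463) and from P5 to P56 it was -0.10 (SE 0.25, adjusted p = 0.771), both by limma, so these neighbors did not differ beyond their spread. P56 was 3.10 above E14.5 on the log2 scale (8.55-fold, adjusted p = 1.21e-07 by limma).
Afm was measured by a bright probe, which read 2236, 2804 and 2696 Cy5 units on the E14.5 arrays, 10241, 9146 and 11849 on the E18.5 arrays, 21807 and 11270 on the P5 arrays, and 12580, 6383 and 11831 on the P56 arrays. It too was lowest at E14.5, with no overlap with any later stage. Its log2 ratio rose by 2.25 from E14.5 to E18.5 (4.75-fold, SE 0.11, adjusted p = 2.12e-08 by limma).
A further difference of 0.46 from E18.5 to P5 in Afm passed the threshold (SE 0.12, adjusted p = 0.0300 by limma), as did the lower Alb ratio, so that 2 of 5 genes were called, where 7.13% of all genes were called higher, 6.15% lower and 13.3% in either direction. That Afm call was lost when any 1 of the E18.5 arrays or P5 replicate 2 was left out, with adjusted p between 0.0646 and 0.152. The Alb call rests on ratios whose Cy5 was saturated on every E18.5 array and on P5 replicate 2. In Cy5 alone Alb was not called (adjusted p = 0.0552 by limma). Between P5 and P56 the Afm ratios differed by -0.31 (SE 0.12, adjusted p = 0.0602 by limma), and P56 stood 2.40 above E14.5 (5.27-fold, adjusted p = 2.61e-09 by limma).
The other Afm probe was not well above background in Cy5 on any embryonic array, was so on both P5 arrays, at 74.3 and 51.1 units, and on 1 of 3 P56 arrays, at 52.8 units. It did not show the rise of the bright probe from E14.5 to E18.5, with a log2 difference of -0.02 (SE 0.12, adjusted p = 0.901 by limma) between values at background. From E18.5 to P5 its log2 ratio rose by 0.45 (SE 0.13, adjusted p = 0.0446 by limma).

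Alb was close to or at the ceiling in one or the other channel on nearly every array. In Cy5 it read 19984, 22528 and 26147 units on the E14.5 arrays and was saturated on all 3 E18.5 arrays. On P5 replicate 2 it was saturated at 65148 units, whereas P5 replicate 3 read 58999 units and was not marked as saturated. The P56 arrays read 53251, 21415 and 42618 units. In Cy3, the same reference RNA was saturated on all E14.5 and P56 arrays and on P5 replicate 2, and lay at 54590, 29928 and 34434 units on the E18.5 arrays and 57218 units on P5 replicate 3.
E14.5 was thus the lowest stage in Cy5 together with P56 replicate 2, and E18.5 the highest. In Cy5, E18.5 exceeded E14.5 by at least 2.34-fold and P56 by at least 1.71-fold, with adjusted p of 7.18e-08 and 7.36e-06 for the ratios by limma. No fold is given between E18.5 and P5, since the dimmer stage was saturated too on 1 of its 2 arrays. From P5 to P56 the ratio differed by -0.35 (SE 0.17, adjusted p = 0.109 by limma). P56 exceeded E14.5 1.37-fold in Cy5 and by 1.23 on the log2 ratio scale (2.34-fold, adjusted p = 1.39e-05 by limma), a ratio whose Cy3 was saturated in both stages.
Hepatocyte markers rose with Alb, Gc and Afm. From E14.5 to E18.5, 7 of 7 tested markers were called higher, and their summed normalized Cy5 signal lay between 27558 and 31280 units on the E14.5 arrays, 178005 and 193083 on the E18.5 arrays, 143248 and 157999 on the P5 arrays, and 81574 and 110333 on the P56 arrays. Of these markers, Trf and Ahsg were saturated in Cy5 on 4 arrays each, so sums that include saturated spots are limited by the ceiling. The part of cell composition in the rise of the family was not tested. On the arrays of scan 1, E18.5 replicate 1 stood above the E14.5 mean by 3.42 in Gc, 2.24 in Afm and 2.29 in Alb on the log2 ratio scale.

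**Figure D2:**
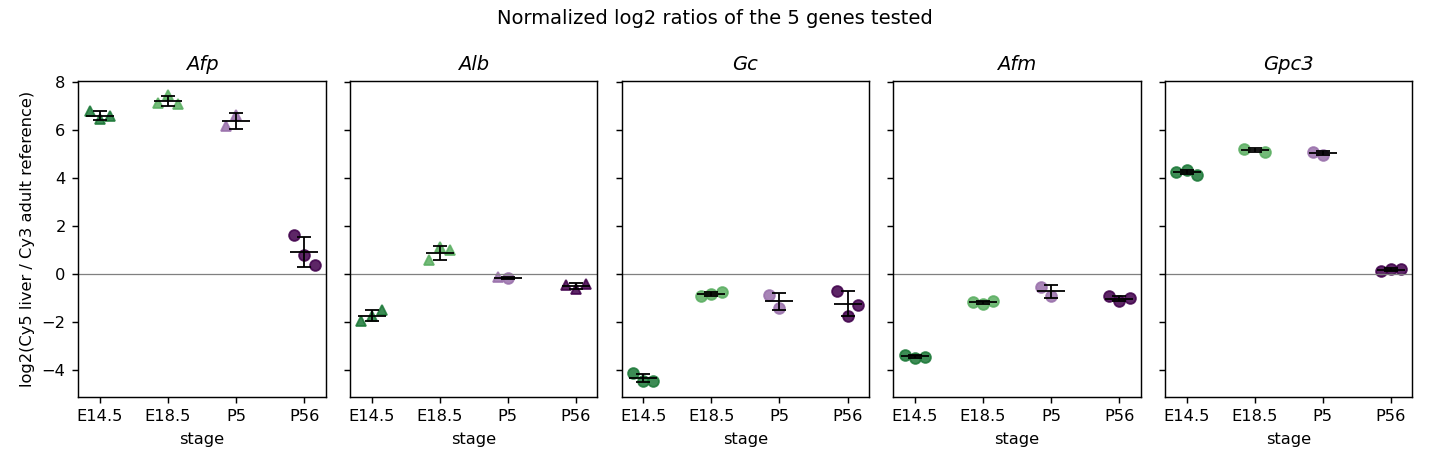
Normalized log2 ratio of Cy5 (liver) over Cy3 (adult reference) for the 5 genes tested, 1 symbol per array, with the mean and SD of each stage as black bars. Triangles mark arrays saturated in either channel. Gc and Afm step up between E14.5 and E18.5, while Afp and Gpc3 drop from means of 6.39 and 5.02 at P5 to 0.93 and 0.18 at P56.

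Gpc3 fell at P56 as Afp did, and was never saturated. It read 3554, 6275 and 5059 Cy5 units on the E14.5 arrays, 19748, 14574 and 14784 on the E18.5 arrays, 22572 and 13045 on the P5 arrays, and 63.2, 57.8 and 65.2 on the P56 arrays, over a local background of 34.0, 38.0 and 36.5 units there. All 3 P56 arrays were well above background, and all lay far below every earlier array.
From E14.5 to E18.5 the log2 ratio of Gpc3 rose by 0.91 (1.88-fold, SE 0.10, adjusted p = 3.81e-05 by limma), with E18.5 replicate 2 left out of the fit because its spot was marked as non-uniform. E18.5 and P5 did not differ beyond their spread, at -0.14 (SE 0.11, adjusted p = 0.482 by limma). From P5 to P56 the ratio fell by 4.84 (SE 0.10, adjusted p = 2.40e-10 by limma). Afp and Gpc3 were the 2 of 5 tested genes called between these stages, both lower, where 24.6% of all genes were called lower, 20.8% higher and 45.3% in either direction. On the Cy5 channel alone Gpc3 was 131-fold lower at P56 than at P5, 134-fold lower than at E18.5 and 44.3-fold lower than at E14.5. The P56 signals were not far above the local background, so the size of these folds depends on the background correction (offset 50). Among the arrays of scan 4, the P56 mean was 4.78 below P5 replicate 3 on the log2 ratio scale.
Over the longer intervals, 3 of 5 genes were called between E18.5 and P56, all lower (Afp, Alb and Gpc3), where 33.5% of all genes were called lower, 31.3% higher and 64.8% in either direction. All 5 were called between E14.5 and P56, with Alb, Afm and Gc higher and Afp and Gpc3 lower, where 36.2% of all genes were called higher, 34.7% lower and 70.9% in either direction. Stage and scan cannot be told apart for P56 against either embryonic stage or for P5 against E18.5.

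The ratios of Afp and Gpc3 changed less than Cy5 did, and the reference channel moved with the sample channel. The Cy3 signal of the common reference at the Afp spots was 348 to 834 units on the 8 arrays where Cy5 was saturated and 211 to 227 units on the P56 arrays. At the Gpc3 spot it was 170 to 615 units on the arrays of E14.5 to P5 and had a median of 88.6 units at P56.
Bright probes as a set also read higher in Cy3. Gpc3 itself was among the bright probes counted at E18.5 and at P5, so those medians are not independent of it. Of probes under 150 Cy3 units and under 500 Cy5 units at P56, 17 exceeded 10000 Cy5 units at E18.5, and their Cy3 signal was a median of 5.92 times that at P56, with a range of 2.29 to 34.3. For the 27832 probes also under 500 Cy5 units at E18.5 the median was 0.957. At P5 the medians were 6.04 for 14 bright probes and 0.979 for 27885 dim probes, and at E14.5 they were 15.1 for 9 and 0.931 for 27771. What moved the Cy3 signal was not tested.

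**Figure D3:**
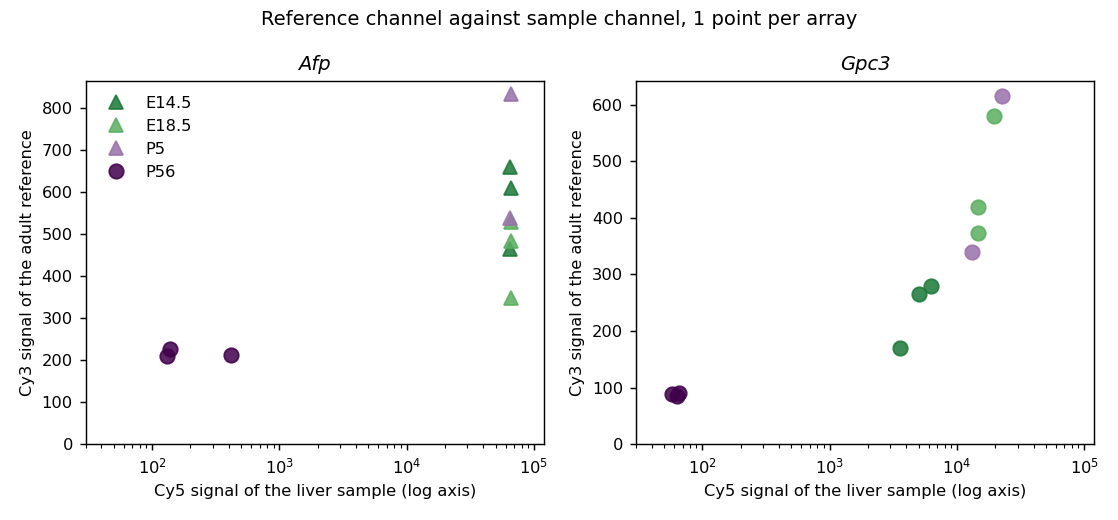
Cy3 signal of the adult reference (linear axis, scanner units) against the Cy5 signal of the liver sample at the same spot (log axis), 1 point per array, for Afp (median of 10 spots) and Gpc3. Triangles are arrays saturated in Cy5. The same reference RNA reads 211 to 227 units at Afp on the P56 arrays and 348 to 834 units where Cy5 is saturated.

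Zhx2 could not be followed. Its single probe read 43.8, 47.9 and 47.1 Cy5 units on the E14.5 arrays, 55.4, 39.2 and 40.7 on the E18.5 arrays, 52.8 and 41.5 on the P5 arrays and 48.5, 38.4 and 41.5 on the P56 arrays, and was not well above background in Cy5 on any of the 11 arrays. The stages overlapped and no fold is given. Without the filter on dim probes the log2 differences of Zhx2 were -0.03 to 0.11 (SE 0.10 to 0.11) and no adjusted p by limma was below 0.497, which for a probe at background says nothing about the level of Zhx2.

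Of the other regulators of Afp and Alb, 13 rose between E14.5 and E18.5. Of a list of 21 factors known to act on these genes, 20 were tested. From E14.5 to E18.5, these 13 of 20 were called higher and none lower, with a median log2 difference of 0.93 against -0.01 over all genes, and from E14.5 to P56, 19 of 20 were called higher and none lower, with a median of 1.53 against 0.04; with median centring in place of loess 12 were called higher and 2 lower, with a median of 0.70 against -0.33. From P5 to P56, the interval in which Afp left the ceiling, 5 were called higher and 1 lower, with a median of 0.22 against -0.02. That split depended on the scaling, as with median centring 2 were called higher and 14 lower, with a median of -0.64 against -0.47 over all genes. From E18.5 to P5, 4 were called higher and none lower, with a median of 0.10 against 0.00. Over all genes, 24.4% were called higher and 22.7% lower from E14.5 to E18.5, and 36.2% and 34.7% from E14.5 to P56. From P5 to P56 these shares were 20.8% and 24.6%, and from E18.5 to P5 they were 7.13% and 6.15%.
Zbtb20, the repressor of Afp, rose early. Its log2 ratios were -3.54, -3.54 and -3.87 on the E14.5 arrays, -1.62, -1.24 and -1.39 on the E18.5 arrays, -1.40 and -1.48 on the P5 arrays, and -0.76, -0.91 and -0.60 on the P56 arrays. The stages E14.5, E18.5 and P56 did not overlap, and P5 lay within the range of E18.5. The step from E14.5 to E18.5 was 2.23 (SE 0.13, adjusted p = 7.88e-08 by limma), while Afp was saturated at both stages, and the step from P5 to P56 was 0.68 (adjusted p = 0.00249 by limma).
Median centring in place of loess moved the median of all genes to -0.47 between P5 and P56, where Zbtb20 was then -0.17. Relative to the median of all genes, Zbtb20 was above it under each of the 6 alternative scalings, by 0.30 to 1.04. Of the 6 regulators called between P5 and P56, 3 changed sign under at least 1 of these scalings as fitted, and none did relative to that median.
Activators of the family rose in the same interval. Cebpa, a C/EBP factor of mature hepatocytes, rose by 2.31 from E14.5 to E18.5, Foxa2, a forkhead factor that opens liver chromatin, by 1.70, and Hnf4a, a nuclear receptor of hepatocytes, by 1.47, with adjusted p by limma of 2.39e-07, 3.38e-06 and 6.98e-07. From P5 to P56 the largest rises were in Cebpb, at 1.53, and Dbp, a clock-controlled factor that acts on the Alb promoter, at 1.51, while Nfib, a nuclear factor I gene, fell by 0.61 (adjusted p = 0.00145 by limma). Zhx3, a relative of Zhx2, rose by 1.41 from E14.5 to E18.5, and Zhx1 differed by 0.27 there. The remaining factor, Nr2f1, did not pass the filter on dim probes.

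**Figure D4:**
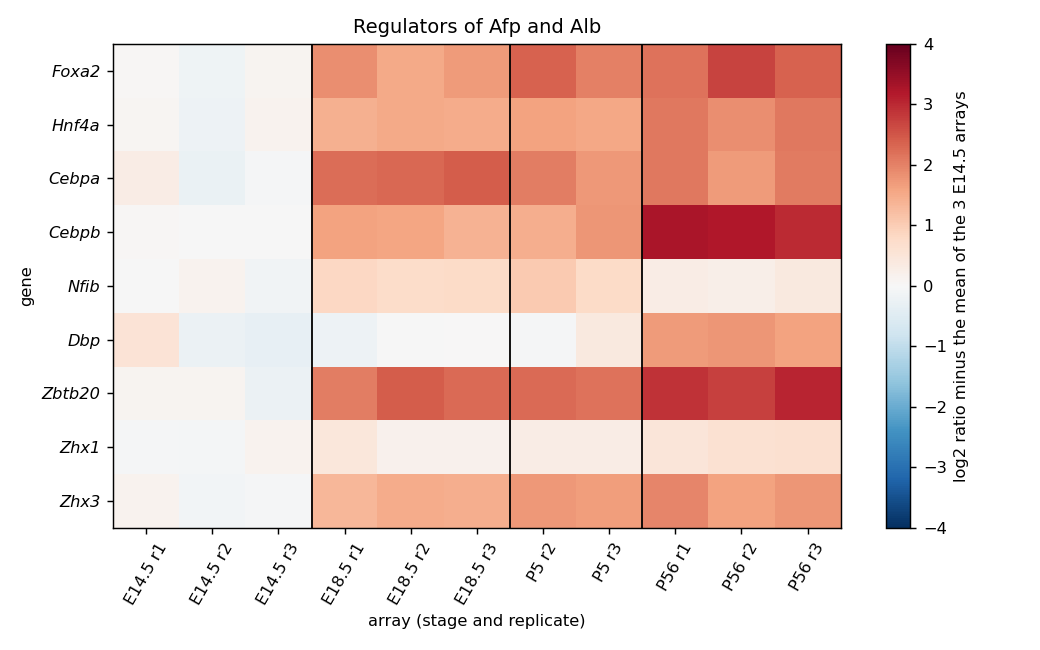
Log2 ratio of the 9 regulators of Afp and Alb described in the text on each of the 11 arrays minus the mean of the gene on the 3 E14.5 arrays, in color from -4 to 4. Most genes turn from white to red at E18.5, Cebpb and Dbp deepen at P56, and Nfib is paler at P56 than at P5.

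Genes known to respond to Zhx2 moved in both directions after P5. Of a list of 14, 12 were tested. Between P5 and P56, where 20.8% of all genes were called higher and 24.6% lower, 8 of these 12 were called higher and 3 lower. Their median log2 difference was 2.45, against -0.02 over all genes. Those that fell were H19, the imprinted RNA that Zhx2 represses together with Afp, at -3.18, Lpl, lipoprotein lipase, at -4.53, and Cyp4a12a at -1.08, which turned relative to the median of all genes under another scaling. H19 ratios were 3.38 and 3.39 at P5 and 0.55, -0.07 and 0.13 at P56, with replicate 1 the highest as in Afp.
The rises were led by major urinary protein genes, secreted carriers of pheromones that are made by the adult liver, with Mup1 at 9.96, Mup5 at 8.08, Mup4 at 5.38 and Mup3 at 4.59. These genes are near-identical copies, so which of them was measured is uncertain, and the same holds for Cyp2a4 at 1.63 and Cyp2a5 at 2.77. Scd1, a desaturase of fatty acids, rose by 3.92 and Elovl3, a fatty acid elongase, by 2.13.

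Afp and Gpc3 fell together with most other genes of the fetal liver. Of 18 oncofetal and fetal liver genes listed, 16 were tested, and 12 were called lower and 1 higher between P5 and P56, with a median of -2.27 against -0.02 over all genes. Between E14.5 and P56, 15 were called lower and 1 higher, with a median of -3.38 against 0.04. Over all genes, 24.6% were called lower and 20.8% higher from P5 to P56, and 34.7% and 36.2% from E14.5 to P56. From E18.5 to P5 these shares were 6.15% and 7.13%.
The falls passed the threshold in different intervals. Igf2, a fetal growth factor, had a mean log2 ratio of 3.50 on the E14.5 arrays, 4.12 on the E18.5 arrays and 4.00 on the P5 arrays and fell by 3.95 from P5 to P56, and Mest and Bex1, at 3.63 and 3.19 at P5 and -0.26 and -0.13 at P56, also fell after P5. Hmga2, a chromatin protein of embryonic tissue, had dropped by 2.58 already from E14.5 to E18.5, and Lin28b, a repressor of let-7 miRNAs, by 1.07. From E18.5 to P5, 7 were called lower and none higher, among them Plagl1 at -1.64, Dlk1, a surface protein of hepatoblasts, at -1.63, and Cdkn1c at -1.30. Sall4 was the gene called higher, by 0.45 from P5 to P56, and turned under another scaling.
The P56 array with the highest Afp, replicate 1, was compared with the other P56 arrays for these genes. The median log2 ratio of the genes was -0.06 in replicate 1, 0.03 in replicate 2 and -0.10 in replicate 3, and replicate 1 was the highest array for 4 of 16. Ratios of some of them, such as Igf2 at 0.07, 0.05 and 0.03, were near 0 on all P56 arrays. The ranking therefore cannot show whether these genes move with Afp.

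**Figure D5:**
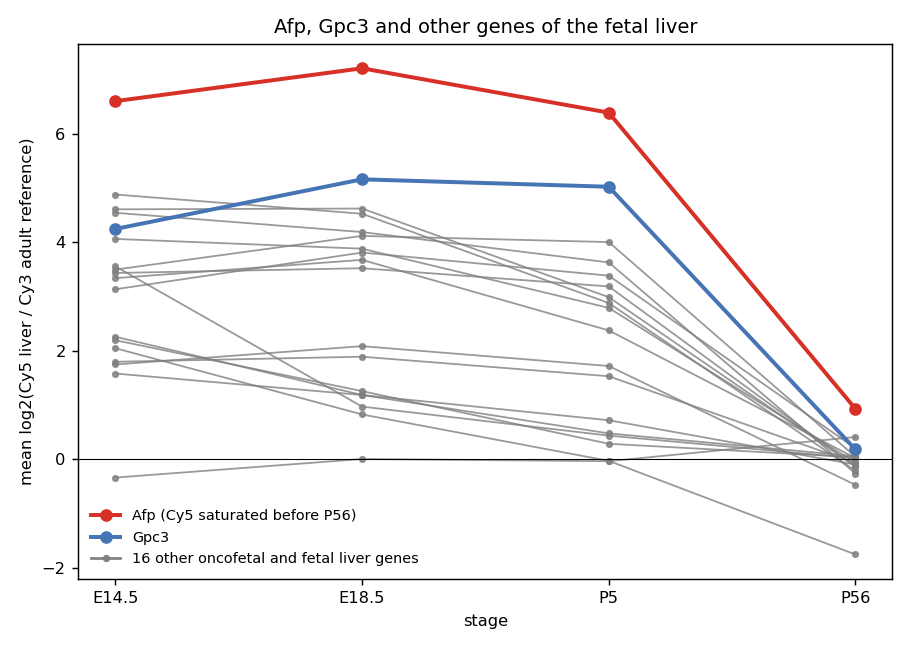
Mean log2 ratio of Cy5 (liver) over Cy3 (adult reference) by stage for Afp (red), Gpc3 (blue) and 16 other oncofetal and fetal liver genes (grey). Afp values before P56 are saturated in Cy5. Mean ratios of Gpc3 are 5.16 at E18.5 and 5.02 at P5, and the course of Afp before P56 cannot be read from saturated spots.

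Other glypicans were less well measured. Of 5, Gpc2 and Gpc5 did not pass the filter, and between P5 and P56 Gpc6 was called lower, at -0.31, whereas Gpc1 was -0.57 and Gpc4 -0.18 without passing the threshold. Gpc6 turned relative to the median of all genes under another scaling.
Plasma proteins and carriers of adult hepatocytes moved with Gc and Afm. Of 17 listed, 16 were tested, 15 were called higher and 1 lower from E14.5 to E18.5, with a median of 2.42 against -0.01 over all genes, and the same numbers held from E14.5 to P56, with a median of 2.35. Over all genes, 24.4% were called higher and 22.7% lower up to E18.5, and 36.2% and 34.7% from E14.5 to P56. Transthyretin (Ttr), the carrier of thyroid hormone, rose by 2.94 and apolipoprotein Apoa1 by 3.35 up to E18.5, neither saturated on any array. The gene that fell was Serpina6, corticosteroid-binding globulin, at -2.61. From P5 to P56, 5 were called higher and 6 lower, or 3 and 8 with median centring.

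The neighbors of the family on chromosome 5 were called in both directions, as were all genes tested. Within 1 Mb of a family probe, 34 other gene names had probes, and 17 were tested. From E14.5 to E18.5, 3 were called higher and 4 lower, with a median of 0.05, where 24.4% of all genes were called higher and 22.7% lower. From P5 to P56, 4 were called higher and 5 lower, with a median of -0.08, where 20.8% of all genes were called higher and 24.6% lower. Median centring gave 1 higher and 8 lower between P5 and P56, with a median of -0.40 against -0.47 over all genes. Rassf6, whose probe lay 49895 bases beyond that of Afm, rose by 1.11 up to E18.5. Slc4a4, a bicarbonate transporter on the Gc side, rose by 1.98 from E18.5 to P5, where Gc did not pass the threshold. Cxcl4, a platelet chemokine gene, fell by 3.53 from P5 to P56.

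Blood cell markers fell in the same interval as Afp and Gpc3. All 10 erythroid markers were called lower between P5 and P56, with a median of -2.72, and all 10 between each embryonic stage and P56. Their summed normalized Cy5 signal was 180460 to 206625 units on the E14.5 arrays, 162907 to 179434 on the E18.5 arrays, 125320 to 155784 on the P5 arrays and 24539 to 38980 on the P56 arrays, with the highest P56 sum in replicate 1. The erythroid markers Hbb-b1 and Hba-a1 were saturated in Cy5 on 8 arrays each, so sums that include saturated spots are limited by the ceiling. Of the 10, 4 were not well above background on any P56 array. All 6 other hematopoietic markers were also called lower between P5 and P56, and their sum was 7622 to 9533 units at P5 and 1029 to 1434 units at P56. Between the same stages 6 of 6 endothelial, 4 of 6 macrophage, 4 of 8 stellate and fibroblast, 2 of 5 biliary and 1 of 4 mesothelial markers were called lower, and 5 of 7 hepatocyte markers were lower and 2 higher. Of the stellate and fibroblast markers 1 was called higher. Over all genes, 24.6% were called lower and 20.8% higher between these stages. The part of blood cells and of these other cells in the change of Afp and Gpc3 was not tested. Markers of yolk sac and visceral endoderm, another source of Afp, passed the threshold in 0 of 4 genes between P5 and P56 by limma, with a smallest adjusted p of 0.135 in Rbp4. Apoa4 and Rbp4 among them are also made by hepatocytes, and Amn and Cubn were not well above background on any P56 array.

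Across the 11 arrays, the genes whose ratios ran most like each member were taken among 1906 genes that spanned at least 2 log2 units between stages. Up to 3 genes are given for each. These correlations are descriptions, since the arrays of a stage cluster together and share the reference. For Afp they were Tspan33 (r = 0.994) and Eraf (0.993), and for Gpc3, over 10 arrays, Igf2 (0.998), E2f2 (0.995) and Slc4a1 (0.994). For Gc they were C1s (0.994), Slc39a14 (0.994) and Cpn2 (0.994), for Afm they were Uroc1 (0.996) and Sult1a1 (0.995), and for Alb they were Fgb (0.991), Fga (0.983) and D11Ertd759e (0.981). The Afp and Alb values behind these correlations include saturated arrays. So do those of Fgb, which was saturated on 5 arrays in Cy5 and on 8 in Cy3.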

How the data were processed

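The authors deposited, for each array, the intensity of every spot in both channels from Agilent's Feature Extraction software (version 9.5.1.1), which also marks saturated and outlying spots. The authors also deposited a table of log2 ratios per gene, used as an alternative only. Here, background was removed from the intensities with normexp (offset 50), followed by loess within each array. Outlier spots were left out, saturated ones were kept, and spots of a probe were averaged. A probe entered the tests if 1 stage or more had it well above background in Cy5 throughout (23523 probes, 16702 genes). The 11 arrays were fitted together in limma (version 3.58.1, R version 4.3.3), P values were adjusted over probes by Benjamini-Hochberg, and 0.05 was the threshold. A gene was represented by its brightest unsaturated probe, or else its brightest. The ± values are SDs and SEs are those of limma. Folds on Cy5 alone are from the normalized Cy5 channel after loess and Aquantile, and "at least" marks a saturated or dim stage. With 2 or 3 arrays per stage the number of arrays limits the precision, and P values measure the spread between these samples. For Afp and Alb the ceiling hides part of that spread. Scan was read from the files, which hold 4 scans. Scan 1 held E14.5 and E18.5 replicate 1, scan 4 held P5 replicate 3 and P56.

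Genes named are the members, those of the lists, the neighbors within 1 Mb on chromosome 5 and the 3 genes most like each member. The members and lists were chosen with earlier results of these data known. Promoters are from RefSeq (GRCm38.p6), figures were drawn with matplotlib, and the alternatives tried are given with their effect in the closing section. Protein sequences were not used here, and some genes that the naming rule selects are not reported here.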

Additional observations from a re-analysis of the deposited data

How the results depend on the processing

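The falls of Afp and Gpc3 to P56 and the rises of Gc and Afm from E14.5 kept direction and call under every alternative that could test them, except that the methods' t-test called only Gpc3 between P5 and P56. Leaving out saturated spots removed Afp and Alb from the tests, leaving 1 call for P56 against P5, 1 against E18.5 and 3 against E14.5 (Afm, Gc and Gpc3). The 2 calls of P5 against E18.5 were the least stable. They became 0 with the scanner software's signals, with either Cy5-only setting (the quantile-normalized one was added after seeing the data) and with the t-test, where 2, 2, 1 and 2 of the 5 genes had an unadjusted p below 0.05, and 1 with median centring, without saturated spots, with the replicate block, with scan as a random block and with a minimum log2 change of 1.

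Leaving out 1 array gave 4 to 5 calls for E18.5 against E14.5, 1 to 3 for P5 against E18.5, 2 to 3 for P56 against P5, 3 to 4 for P56 against E18.5 and 5 to 5 for P56 against E14.5. Same-numbered replicates did not deviate together (r of -0.32 to 0.20, over 0.1 in 1 of 15 pairs), so the block pairs nothing known, and it changed no other count of calls.

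Signs turned only in small differences. Afp at E18.5 against E14.5 was -0.24 in Cy5 alone, where both stages were saturated. At P5 against E18.5, Gpc3 was 0.054 without background correction, 0.094 with the software's signals, 0.053 with median centring and 0.066 in the authors' table, and Gc was 0.076 with median centring. Gc at P56 against P5 was 0.16 with scan as a fixed block, 0.019 with quantile-normalized Cy5, and -0.37 to 0.16 when 1 array was left out, turning without P5 replicate 2 (0.16) or P56 replicate 2 (0.15). The rise of Gpc3 up to E18.5 lost its call with the software's signals (0.58, limma adjusted p = 0.0955). The causes were not tested. For the genes behind the background shares, calls of P5 against E18.5 went from 2218 to 1426 with the software's signals, 829 in the authors' table, 930 to 3772 without 1 array and 38 by the methods' t-test after adjustment, and with scan as a fixed block those of P56 against P5 went from 7574 to 2221, to 4680 without P5 replicate 2 and to 109 by the t-test. Median centring made 6.8% of the latter calls higher in place of 45.8%, 15% in place of 48.3% for P56 against E18.5 and 23% in place of 51% against E14.5. Saturation limits Afp and Alb, and background limits Zhx2 and the dim Afm probe.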
